A study of Macaca fascicularis with 21 samples.

Results

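The cells described here are the trophoblast of cynomolgus monkey (Macaca fascicularis) embryos grown in a dish, compared between day 17 and day 14. They were taken as every cell that the authors' deposited annotation calls TE and derivatives, in embryos of these days with at least 5 such cells. This gave 83 cells of the 1453 in the series: 62 cells from 4 embryos of day 14 and 21 cells from 3 embryos of day 17. Trophectoderm, abbreviated TE, is the outer layer of the blastocyst, and its descendants are the trophoblast.

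The series holds single-cell RNA sequencing, counted at the 3' end of the mRNA, of 21 embryos between day 11 and day 17. Every embryo was a blastocyst freed of its zona with protease and placed alone in a Matrigel-coated well, in CMRL 1066 medium with fetal bovine serum whose share was raised as culture went on. The labels give no genetic change and no treatment that sets the 2 days apart. Before the cells were picked by hand, the extraembryonic tissue at the attachment site was cut away under a microscope. The position of each picked trophoblast cell in the embryo is not given by the labels read here. All 4 embryos of day 14 and replicate 3 of day 17 carry the day as a developmental stage in the labels, while replicates 1 and 2 of day 17 carry it as a culture stage. The deposited annotation gives every one of the 1453 cells the same day as its embryo's label.

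Trophoblast is the part of the conceptus that attaches to the uterus and builds the placenta. Its dividing cytotrophoblast cells give rise to syncytiotrophoblast, which forms by cell fusion and secretes hormones such as chorionic gonadotropin, and to extravillous trophoblast, which leaves the epithelium and invades the uterine wall and its arteries. Hormones and fusion proteins are used as marks of the first, and PRG2 (proteoglycan 2), HTRA4 (a placental serine protease) and matrix-degrading enzymes as marks of the second.

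Trophoblast made up 16.0 to 24.1% of the cells of the day 14 embryos and 6.25 to 11.6% of those of day 17, with no overlap (exact 2-sided permutation test, p = 0.05714, the smallest p that 3 against 4 embryos allow). Summed counts ran from 1079729 to 3848760 per embryo on day 14 and from 287295 to 1000227 on day 17, and the deepest cell held 33.4 to 39.5% of the counts of each day 17 embryo. As a check of the label, the 8 trophoblast markers other than CGA summed to 954 to 1283 CPM in day 17 trophoblast and 1278 to 2848 CPM on day 14, against 280 to 312 CPM in the extraembryonic mesenchyme and 26.8 to 323 CPM in the epiblast of day 17. Mesenchyme markers (COL1A1, COL3A1, VIM and 11 others, all 14 with counts) summed to 154 to 1228 CPM in trophoblast of day 14 and 755 to 2466 CPM on day 17, against 15592 to 23476 CPM in mesenchyme of day 17; of the 12 that could be tested none was called, with a median log2 fold change of 0.65. A cell was counted as rich in mesenchyme markers where they held more counts than the 9 trophoblast markers, CGA included. That was so for 7 of 10, 1 of 6 and 2 of 5 trophoblast cells of day 17 replicates 1, 2 and 3. On day 14 it was so for 1 of 62 cells. Every day 14 cell held at least 302 CPM of CGA, so this split depends on CGA too. The split without CGA was not made. The 9 epiblast markers summed to 5.56 to 272 CPM in trophoblast of day 14 and 45.2 to 178 CPM on day 17, where NANOG, CRIPTO and GDF3 were at 0, against 1065 to 1246 CPM in epiblast of day 17. The 7 amnion markers summed to 399.5 to 1659 CPM in trophoblast of day 14 and 2524 to 6245 CPM on day 17, without overlap, against 4663 to 5501 CPM in mesenchyme and 242 to 489.9 CPM in epiblast of day 17. On day 17 most of that sum was IGFBP3, and the other 6 amnion markers summed to 268 to 513 CPM on day 14 and 83.5 to 297 CPM on day 17. The part of these markers in the results was not tested.

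Counts were summed over the trophoblast cells of each embryo, so an embryo is the replicate (n = 4 and n = 3). They are given as CPM, a share of the library scaled to 1000000 counts, after TMM scaling. Values are in the order of the replicate numbers. CPM of mesenchyme and epiblast, and the marker sums above, are without TMM scaling. Of 9614 genes tested with edgeR's quasi-likelihood test, 128 (1.33%) passed an adjusted p of 0.05 and are said to have risen or fallen: 36 rose (0.374%) and 92 fell (0.957%) towards day 17. The embryos of the 2 days did not overlap in any of the 128, nor in 17.1% of all genes tested. Of the 92, 22 had no count in any trophoblast cell of day 17, and 2 of the 36 had none on day 14. Fitting day 17 replicate 3 alone, the embryo that shares its label type with day 14, left 2 calls. In the fit over all days with the label type as a term 75 genes were called, 48 of them among the 128, and 18 of the 44 genes named below with a call kept it. Without the cells that held more mesenchyme than trophoblast marker counts, CGA included among the latter, 122 genes were called. Of these, 81 were among the 128, of which 116 could be tested there. Of the 44, 14 kept the call when any 1 of the 7 embryos was left out. Calls were lost for 8, 19, 0 and 22 of the 44 without day 14 replicates 1 to 4, and for 26, 28 and 21 without day 17 replicates 1 to 3.

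Of 16 measured members of a list of hormones, fusion proteins and other genes of syncytiotrophoblast, 9 fell, none rose and 7 had no call. Over all 9614 genes tested 0.957% fell. Of the 16 members, 3 had a log2 fold change above 0, the highest at 4.43 without a call. With DESeq2, with all days in the fit and without day 14 replicate 3, 1 member of the list rose in each. The list's median log2 fold change was -5.56, or -4.41 with the 3 members at 0 on day 17 set at their bound, against -0.03 over all genes tested. CGA, the alpha subunit shared by chorionic gonadotropin and the pituitary glycoprotein hormones, was at 8022, 14866, 6520.4 and 16488 CPM on day 14. On day 17 it was at 76.6, 42.4 and 65.9 CPM. The days did not overlap (log2 fold change -7.55, SE 0.54, adjusted p = 5.5e-05). LHB, the symbol of a gonadotropin beta subunit whose near-identical placental copies could share its reads, was at 75.5, 245, 135 and 227 CPM on day 14 and had no count in any of the 21 cells of day 17. That is at least 129-fold lower, taking 3 counts over the summed day 17 embryos as the floor (adjusted p = 0.00221).

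CRH, corticotropin-releasing hormone, which primate placenta makes, was at 105, 138, 103 and 211 CPM on day 14 and also without a count on day 17, at least 104-fold lower (adjusted p = 0.0021). LEP, leptin, was at 486, 1181, 965 and 1368 CPM and then at 0, 12.8 and 0 CPM, with counts in replicate 2 alone (log2 fold change -7.52, SE 0.98, adjusted p = 0.00592). NPPA, the precursor of atrial natriuretic peptide, was at 300.3, 2078, 225 and 2411 CPM and had 2 counts in all on day 17, both in 1 cell: the ratio of day 14 to day 17 was 1358, with a 95% counting interval of 376 to 11212 (adjusted p = 0.0156, and 0.117 at most when 1 embryo was left out, the call being lost without any of the 3 day 17 embryos). Each of these was highest in day 14 replicates 2 or 4, and the lowest embryo of day 14 still lay above every embryo of day 17.

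HOPX, a homeodomain protein without DNA binding, went from 423, 658, 242 and 1148 CPM to 3.33, 0 and 3.66 CPM (log2 fold change -8.28, SE 0.91, adjusted p = 0.00221). GDF15, a stress-related secreted cytokine of placenta, went from 332, 336, 243 and 538 CPM to 17.8, 4.93 and 18.3 CPM (log2 fold change -4.81, SE 0.55, adjusted p = 0.00221). The other 2 members that fell lie outside the rule for named genes and were named after their values were seen. INHA, the inhibin alpha subunit, was at 14.6 to 24.7 CPM on day 14 and at 0 on day 17, at least 16.1-fold lower (adjusted p = 0.0344). ERVFRD-1, which encodes the fusion protein syncytin-2, was at 13.6 to 82.6 CPM on day 14 and had 1 count on day 17, a ratio of 95.9 with a counting interval of 17.1 to 3797 (adjusted p = 0.0296). Both of these last calls were lost in 5 of the 7 fits that left out 1 embryo, with adjusted p up to 0.139 for INHA and 0.165 for ERVFRD-1.

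Among members that did not pass were INSL4 and GCM1. INSL4, a placental insulin-like peptide, was at 709.7, 563, 1420.2 and 1091 CPM on day 14. Its day 17 values were 335, 495 and 286 CPM (log2 fold change -1.34, SE 0.39, adjusted p = 0.114), without overlap between the days. GCM1, a transcription factor of syncytiotrophoblast formation, was at 167, 319, 696 and 458 CPM and 439.7, 413 and 494 CPM (log2 fold change 0.13, SE 0.43, adjusted p = 0.917), with the day 17 embryos inside the range of day 14.

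**Figure D1:**
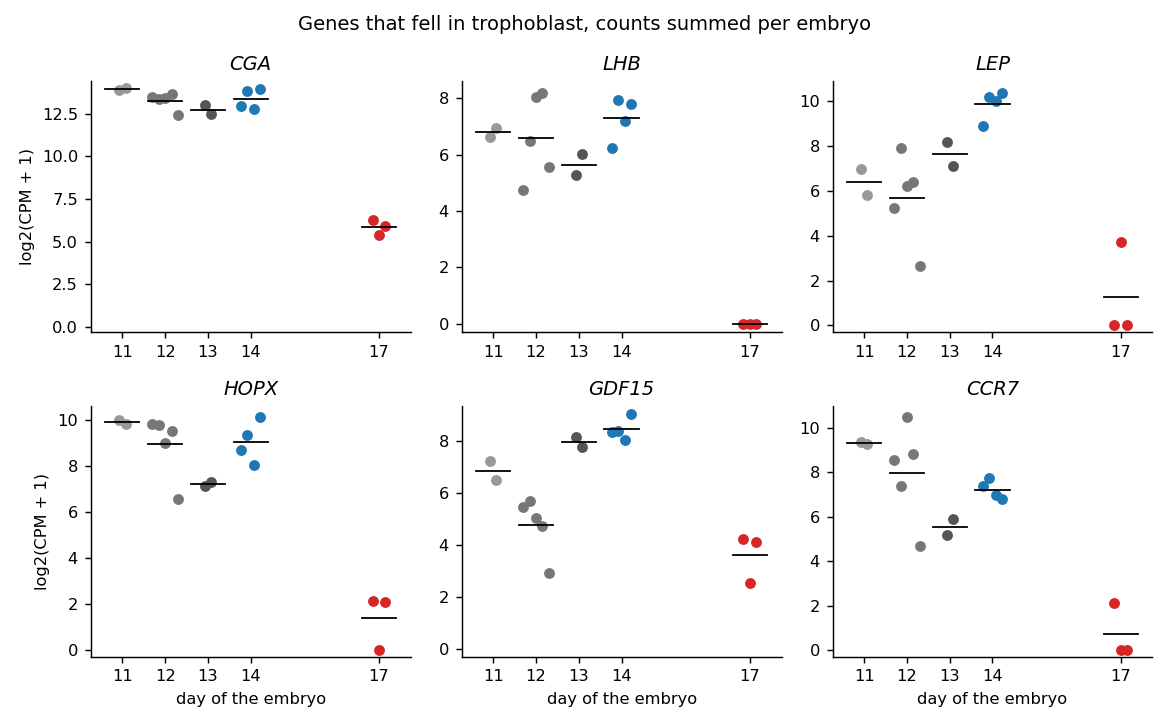
CPM of 6 genes that fell, summed over the trophoblast cells of each embryo and scaled over all 16 embryos with at least 5 such cells; points are embryos, black lines the mean of the log2(CPM + 1) values of a day, blue is day 14 and red day 17. CGA lies between 5529 and 16321 CPM in the 13 embryos of days 11 to 14 and between 40.9 and 76.3 CPM in the 3 of day 17.

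Set among the earlier days, these levels had not all run down in steps. CGA averaged 15727 ± 840.1 CPM on day 11 (SD, n = 2) and 10332 ± 2832 CPM on day 12 (n = 5). It averaged 6921 ± 1784 CPM on day 13 (n = 2) and 11492 ± 4713 CPM on day 14 (n = 4), and then 58.9 ± 17.7 CPM on day 17 (n = 3). LEP was at its highest on day 14, with a mean of 1011 ± 378 CPM, against 91.6 ± 50.3 CPM on day 11 and 4.12 ± 7.14 CPM on day 17. CRH was low before day 14: at most 0.207 CPM on day 11, 10.8 CPM on day 12 and 17.4 CPM on day 13. On day 14 it was at 102 to 207 CPM. GDF15 was at 6.54 to 50.8 CPM on day 12, 263 to 526 CPM on day 14 and 4.76 to 17.7 CPM on day 17. CCR7 had its highest mean, 637 ± 21.3 CPM, on day 11. The 3 trophoblast cells of day 16, with 125735 counts together, held 69 counts of CGA and none of LEP; no embryo of that day had 5, and they entered no test.

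CGA was low in every day 17 cell. Its lowest level in any of the 62 cells of day 14 was 302 CPM and its highest in any of the 21 cells of day 17 was 260.2 CPM, on the CPM of the single cell. In mesenchyme of the same day 17 embryos CGA stood at 31.2 to 163 CPM, and in their epiblast at 31.3 to 141 CPM, and the 43.0 to 72.8 CPM of day 17 trophoblast on the same scale lay within these ranges. Cells of other types held CGA on day 14 too. The trophoblast markers summed there to 741 to 1595 CPM in mesenchyme and 939 to 1040 CPM in epiblast. Without CGA these sums were 200 to 562 CPM and 123 to 187 CPM. The part of RNA from other cells in the lowest CGA values of day 14 trophoblast cells was not tested. Counts of LHB were seen in 45 of 62 cells on day 14 and 0 of 21 on day 17. With every cell thinned to 20000 counts, which leaves out 5 cells of day 14 and 3 of day 17, LHB was seen in 29 of 57 and 0 of 18 cells, and LEP in 37 of 57 and 1 of 18. In the sums alone, fewer cells of a class and less RNA per cell cannot be told apart.

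The genes of transport and steroid synthesis that passed all fell. Of 30 measured nutrient and ion transporters 3 fell and none rose (median -0.90). Over all 9614 genes tested 92 (0.957%) fell and 36 (0.374%) rose. SLC7A8, a neutral amino acid transporter, went from 91.0, 670.1, 99.2 and 623 CPM to 5.55, 1.97 and 7.33 CPM (log2 fold change -6.39, SE 1.03, adjusted p = 0.0174). SLC39A8, a zinc and manganese importer, averaged 152 ± 115 CPM and 10.7 ± 6.22 CPM on the 2 days (adjusted p = 0.0244), and TFRC, the transferrin receptor, 410.5 ± 212 CPM and 88.9 ± 16.1 CPM (adjusted p = 0.0435). Glucose transporter SLC2A1, by contrast, was at 1213 ± 360.5 CPM and 1319 ± 279.9 CPM, and the fatty acid carrier FABP5 at 1028 ± 428 CPM and 413 ± 219 CPM, both without a call (adjusted p = 0.896 and 0.178). SLC13A4, a sulfate transporter outside that list, was at 89.2, 192, 53.9 and 277 CPM on day 14 and had 2 counts on day 17 (ratio 165, counting interval 45.6 to 1364, adjusted p = 0.00592). Of these calls, those of SLC39A8 and TFRC were each lost in 4 or more of the 7 fits without 1 embryo, that of SLC7A8 in the 3 fits without 1 day 17 embryo, and that of SLC13A4 without day 17 replicate 2 (adjusted p = 0.0581).

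Progesterone synthesis runs through CYP11A1, which cuts the side chain of cholesterol with electrons from the ferredoxin FDX1, and then HSD3B1. Of 15 measured genes of steroid synthesis 1 passed, FDX1, at 214, 491, 272 and 1008 CPM on day 14. The day 17 embryos stood at 92.2, 71.9 and 25.6 CPM (log2 fold change -2.93, SE 0.62, adjusted p = 0.0465). HSD3B1 was at 520.5, 2371, 374 and 2305 CPM and 167, 149 and 54.9 CPM without overlap and just missed the threshold (log2 fold change -3.47, SE 0.75, adjusted p = 0.0559). CYP11A1 was at 247, 1076, 535 and 1164 CPM and 224, 266 and 40.3 CPM, and day 17 replicate 2 lay above day 14 replicate 1 (log2 fold change -2.07, SE 0.67, adjusted p = 0.159). The list's median of -0.04 was close to the -0.03 of all genes. The FDX1 call held in 2 of 7 fits that left out an embryo, with adjusted p up to 0.191.

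CCR7, a chemokine receptor, fell from 167, 212, 115 and 113 CPM to 3.33, 0 and 0 CPM, which rest on 3 counts on day 17 (ratio 101, counting interval 34.6 to 492, adjusted p = 0.00236). CTSV, the lysosomal protease cathepsin V, fell from 168, 342, 152 and 459 CPM to 14.4, 9.85 and 18.3 CPM (log2 fold change -4.36, SE 0.56, adjusted p = 0.0034). SMPD1, acid sphingomyelinase, fell from 51.9, 213, 54.9 and 203 CPM to 3.33, 0.985 and 0 CPM (log2 fold change -6.14, SE 0.91, adjusted p = 0.00921). ESRRG, an orphan nuclear receptor abundant in placenta, fell from 197, 365, 178 and 429 CPM to 1.11, 0 and 25.6 CPM (adjusted p = 0.0411), with day 17 replicate 3 well above the other two. The calls of CCR7 and CTSV held in all 7 fits that left out an embryo, that of SMPD1 in 6 (adjusted p = 0.0979 without day 17 replicate 2) and that of ESRRG in 2 (up to 0.121).

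Of 28 measured transcription factors of trophoblast 2 fell and none rose, with a median of -0.64. Over all 9614 genes tested 0.957% fell and 0.374% rose, with a median of -0.03. ID2, an inhibitor of basic helix-loop-helix factors, was at 338, 247, 151 and 258 CPM on day 14. The 3 embryos of day 17 were at 9.99, 8.87 and 22.0 CPM (log2 fold change -4.33, SE 0.51, adjusted p = 0.00221). OVOL1, a zinc finger repressor that acts in trophoblast differentiation, was at 35.5, 141, 54.1 and 159.9 CPM and 11.1, 8.87 and 3.66 CPM (log2 fold change -3.50, SE 0.69, adjusted p = 0.0333, called in 2 of 7 fits without 1 embryo, up to 0.167). GATA3 stood at 174, 516, 180.2 and 456 CPM and 305, 544 and 374 CPM, and the days overlapped (log2 fold change 0.30, SE 0.44, adjusted p = 0.785). GATA2 was at 272, 813, 253 and 1139.8 CPM and 214, 127 and 44.0 CPM, without overlap but short of the threshold (log2 fold change -2.24, SE 0.66, adjusted p = 0.126). TFAP2A was at 321 ± 105 CPM and 133 ± 69.3 CPM (SD, n = 4 and 3, adjusted p = 0.178) and TFAP2C was at 126 ± 103 CPM and 49.7 ± 12.9 CPM (adjusted p = 0.363).

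Among the genes that rose were a vascular growth factor receptor, 1 secreted protease and an imprinted gene. FLT1, the VEGF receptor whose soluble form placenta releases, was at 7.28, 3.28, 25.2 and 34.1 CPM on day 14. It then stood at 782, 451 and 369.9 CPM on day 17 (log2 fold change 4.89, SE 0.70, adjusted p = 0.00984). Every embryo of day 17 lay far above the highest of day 14. The rise was spread over the cells: FLT1 had counts in 19 of 62 cells on day 14 and 20 of 21 on day 17, and at 20000 counts per cell in 9 of 57 and 16 of 18. The call held in all 7 fits that left out an embryo (adjusted p up to 0.0457) and with the label type as a term (log2 4.39, adjusted p = 0.0151).

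DLK1, an imprinted membrane protein related to Notch ligands, was at 0.910, 0, 5.57 and 0.351 CPM on day 14. On day 17 it was at 929, 77.8 and 187 CPM (log2 fold change 7.57, SE 1.23, adjusted p = 0.0263). Day 17 replicate 1 was far above the other two, and 1 cell held 70.8% of all DLK1 counts of that day, though counts were seen in 14 of 21 cells against 4 of 62 on day 14. Leaving out day 14 replicate 1 or 4, or day 17 replicate 1 or 3, took the call away (adjusted p up to 0.0801). Without the cells with more mesenchyme than trophoblast marker counts, 7 of 10 in day 17 replicate 1, DLK1 did not pass the filter on low counts and was not tested. In mesenchyme of the same embryos DLK1 also rose, by 5.26 on the log2 scale (adjusted p = 0.00625), to 229 to 486 CPM.

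HTRA1, a secreted serine protease, was at 26.4, 54.7, 87.0 and 75.5 CPM on day 14. Its day 17 values were 616, 598 and 275 CPM (log2 fold change 3.02, SE 0.45, adjusted p = 0.00977). It had counts in 40 of 62 and 21 of 21 cells, and stood at only 4.91 to 24.5 unscaled CPM in mesenchyme of day 17. ITGB2, the beta chain of the leukocyte integrins, was at 135, 58.6, 201 and 63.2 CPM and 1000.4, 974 and 465 CPM (log2 fold change 2.83, SE 0.48, adjusted p = 0.0174), against at most 42.7 CPM in day 17 mesenchyme. GBE1, the glycogen branching enzyme, was at 15.5, 29.0, 73.2 and 38.6 CPM and 372, 224 and 711 CPM (log2 fold change 3.45, SE 0.55, adjusted p = 0.013), against 136 to 201 CPM in mesenchyme. When 1 embryo was left out, the calls of HTRA1 and GBE1 held in 5 of 7 fits and that of ITGB2 in 4, with adjusted p up to 0.0803, 0.0559 and 0.129. With the label type as a term GBE1 kept its call (adjusted p = 0.0038), while HTRA1 (log2 2.05, adjusted p = 0.317) and ITGB2 (log2 1.95, adjusted p = 0.104) did not. In the fit over all days without that term HTRA1 had an adjusted p of 0.0577.

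SNTG2, a syntrophin that tethers proteins to the membrane skeleton, was at 1.82, 3.83, 0.796 and 5.27 CPM on day 14. The day 17 embryos stood at 51.1, 55.2 and 300.4 CPM (log2 fold change 5.45, SE 0.84, adjusted p = 0.0114), highest in replicate 3. CYFIP2, a subunit of the actin-regulating WAVE complex, was at 2.73, 3.83, 3.72 and 4.92 CPM and 57.7, 51.2 and 76.9 CPM (log2 fold change 3.96, SE 0.55, adjusted p = 0.00592). Both calls held in all 7 fits that left out an embryo. Smaller rises were those of SMARCA1, a chromatin remodelling ATPase (13.8 ± 6.93 CPM to 106 ± 22.8 CPM, adjusted p = 0.0237), and of ZNF395 (42.5 ± 21.2 CPM to 260.2 ± 146 CPM, adjusted p = 0.0307). LPIN2, a phosphatidate phosphatase, also rose (20.7 ± 2.49 CPM to 109 ± 54.2 CPM, adjusted p = 0.0269), as did VLDLR, a lipoprotein receptor (22.9 ± 10.3 CPM to 113 ± 35.9 CPM, adjusted p = 0.0381). EGR1, an immediate early gene, went from 18.1 ± 12.6 CPM to 127 ± 49.7 CPM (adjusted p = 0.0381), a level also seen in mesenchyme of day 17 (114 to 220.04 CPM). These 5 calls were each lost in 4 or more of the 7 fits. For VLDLR and LPIN2, earlier days overlapped day 17 when CPM were scaled over all 16 embryos. VLDLR was at 54.8 to 84.8 CPM on day 13 and 69.5 to 144 CPM on day 17. LPIN2 was at 40.9 to 53.9 CPM on day 11 and 53.0 to 161 CPM on day 17.

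**Figure D2:**
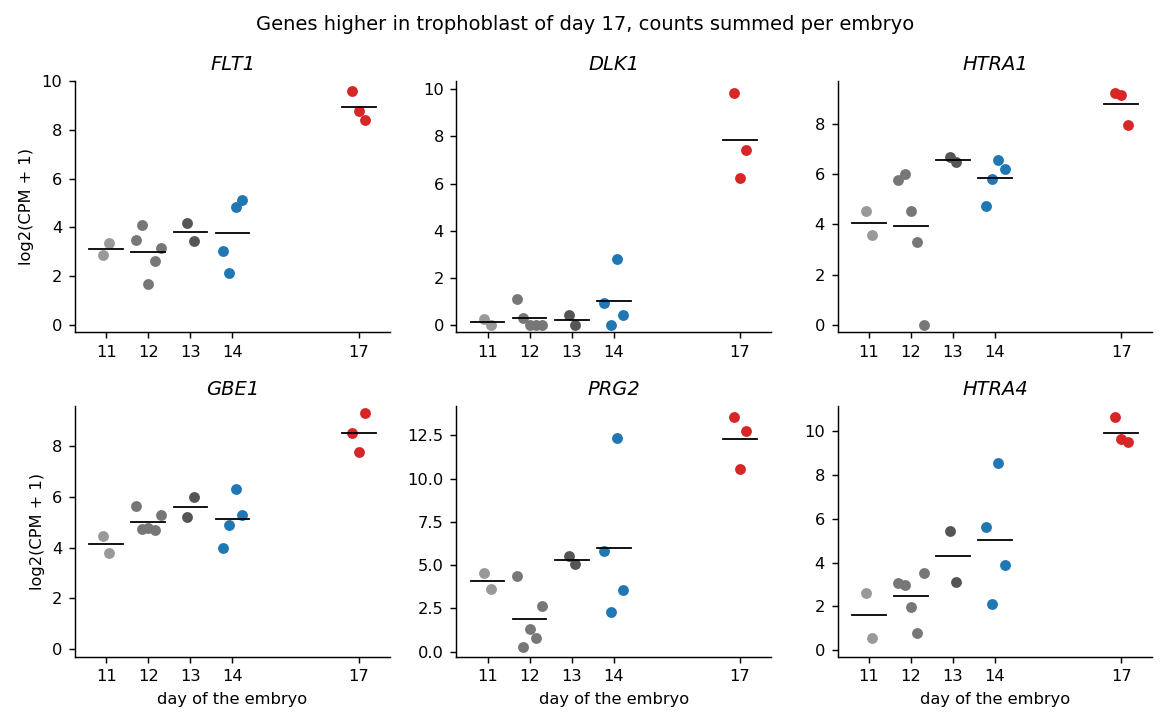
CPM of 6 genes with higher levels on day 17, summed over the trophoblast cells of each embryo and scaled over all 16 embryos; points are embryos, black lines the mean of the log2(CPM + 1) values of a day. FLT1 lies between 2.17 and 33.3 CPM up to day 14 and between 334 and 778 CPM on day 17, while PRG2 reaches 5157 CPM in 1 embryo of day 14, above the lowest embryo of day 17 at 1503 CPM.

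Most genes of extravillous trophoblast had no call, though most had values above 0. Of 24 measured members of the list 3 rose, 1 fell and 20 had no call. Of all 9614 genes tested 36 (0.374%) rose and 92 (0.957%) fell. The list's median log2 fold change was 1.98, with 20 of the 24 above 0, against 4679 of 9614 over all genes. Besides HTRA1, another riser was FSTL3, which binds activin, at 60.1, 74.5, 26.3 and 71.3 CPM and 318, 216 and 300.4 CPM (log2 fold change 2.26, SE 0.41, adjusted p = 0.0244). The other was PLAC8, a small cysteine-rich protein of invasive trophoblast, at 209, 366, 796 and 292 CPM and 1734, 1607 and 1546 CPM (log2 fold change 1.97, SE 0.42, adjusted p = 0.0467). The member that fell was TAC3, the precursor of neurokinin B, at 176, 44.3, 19.1 and 51.3 CPM on day 14 and with 3 counts in 1 cell on day 17 (ratio 37.6, counting interval 12.8 to 183, adjusted p = 0.0406). FSTL3 kept its call in 2 of 7 fits without 1 embryo, PLAC8 and TAC3 in 1, with adjusted p up to 0.0906, 0.191 and 0.187. LAIR2, a secreted collagen-binding decoy receptor, was at 1834, 7288, 8689.5 and 7427 CPM and 12299.7, 9045 and 10465 CPM, without a call (adjusted p = 0.418).

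PRG2 and HTRA4 were high in all 3 embryos of day 17 and in 1 embryo of day 14. PRG2 was at 56.4, 3.83, 4761 and 11.2 CPM on day 14. The 3 embryos of day 17 were at 12139.8, 1556 and 7666 CPM, so that day 14 replicate 3 lay above day 17 replicate 2 (log2 fold change 2.56, SE 2.23, adjusted p = 0.628). HTRA4 was at 50.04, 3.28, 349 and 14.1 CPM and 1633, 826 and 806 CPM, with no overlap, but replicate 3 again stood far above the other day 14 embryos (log2 fold change 3.38, SE 1.34, adjusted p = 0.266). Without day 14 replicate 3 the log2 fold changes were 8.34 (adjusted p = 0.00591) and 5.71 (adjusted p = 0.00348), each past the threshold. Leaving out the highest day 14 embryo favours a rise. Over all fits that left out 1 embryo the values ran from 1.80 to 8.34 for PRG2 and from 2.86 to 5.71 for HTRA4.

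Day 14 replicate 3 was also the highest day 14 embryo for other named genes, INSL4 and GCM1 among them. Values of 5 further ones follow. SERPINE2, an inhibitor of serine proteases, was at 20.02, 9.31, 1258 and 7.03 CPM and 4231, 1683 and 3714 CPM. NOTUM, which inactivates WNT proteins, was at 163, 67.3, 797 and 58.0 CPM and 2435, 3011 and 1227 CPM. MMP12, a metalloprotease named after its values were seen, was at 157, 0.547, 2218 and 18.6 CPM and 4381, 1389 and 755 CPM. TGFB2, a transforming growth factor, was at 19.1, 0, 429.6 and 2.11 CPM and 623, 479 and 216 CPM. IGFBP3, a carrier of insulin-like growth factors, was at 295, 31.2, 1419.9 and 149 CPM and 6345, 2944 and 2568 CPM. None of the 5 passed with all embryos (adjusted p = 0.439, 0.145, 0.692, 0.662 and 0.218). Without day 14 replicate 3, 12 of 23 measured extravillous members rose (median 2.61). The count of all calls then went from 128 to 450, with 245 rises and 205 falls. That embryo was the highest of day 14 in the genes above, so leaving it out favours a rise. Leaving out day 14 replicates 1, 2 and 4 gave 2, 1 and 1 risen extravillous members. Leaving out day 17 replicates 1, 2 and 3 gave 0, 0 and 1. With the label type in the fit none of the extravillous members was called.

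At the level of cells, PRG2 passed 1000 CPM in 9 of 62 cells on day 14, of which 7 came from replicate 3 and 2 from replicate 1, and in 6 of 10, 3 of 6 and 2 of 5 cells of the 3 day 17 embryos. That level is a point on a range, not a class: 5 cells of each day lay within a factor of 2 of it. On day 14 the 9 cells above it had a median CGA of 539 CPM and a median MMP12 of 3649 CPM, and the 53 below it a median CGA of 11522 CPM and a median MMP12 of 0. On day 17 median CGA was 55.0 CPM in the 11 cells above and 85.1 CPM in the 10 below, so low CGA was common to both. PRG2 and the other genes of this paragraph were chosen with their values known, and the split carries no test.

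Other genes are given for the day 17 cells by the same split, also with no test. Above 1000 CPM of PRG2, HTRA4 had counts in 11 of 11 cells, with a median of 1859 CPM, and IGFBP3 a median of 4207 CPM. Below it HTRA4 had counts in 2 of 10 cells and IGFBP3 a median of 249 CPM. TP63, the transcription factor of cytotrophoblast, had counts in 3 of 11 cells above (highest 11.0 CPM) and 6 of 10 below (median 54.2 CPM), and ITGA6, a laminin-binding integrin of cytotrophoblast, had medians of 32.5 and 233.8 CPM. MKI67, which marks cycling cells, had counts in 3 of 11 and 9 of 10. Other genes of trophoblast and epithelium did not all go the same way. KRT7 had medians of 236 CPM above and 103 CPM below, and CDH1 had counts in 6 of 11 and 6 of 10 cells. GATA3 had medians of 203 and 514 CPM, and VGLL1 of 138 and 525 CPM. In the day 17 sums given below, TP63 was highest in replicate 3. FLT1 had medians of 418 and 424 CPM, and HTRA1 had medians of 577 and 84.3 CPM. Median totals were 70912 and 57264 counts per cell.

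**Figure D3:**
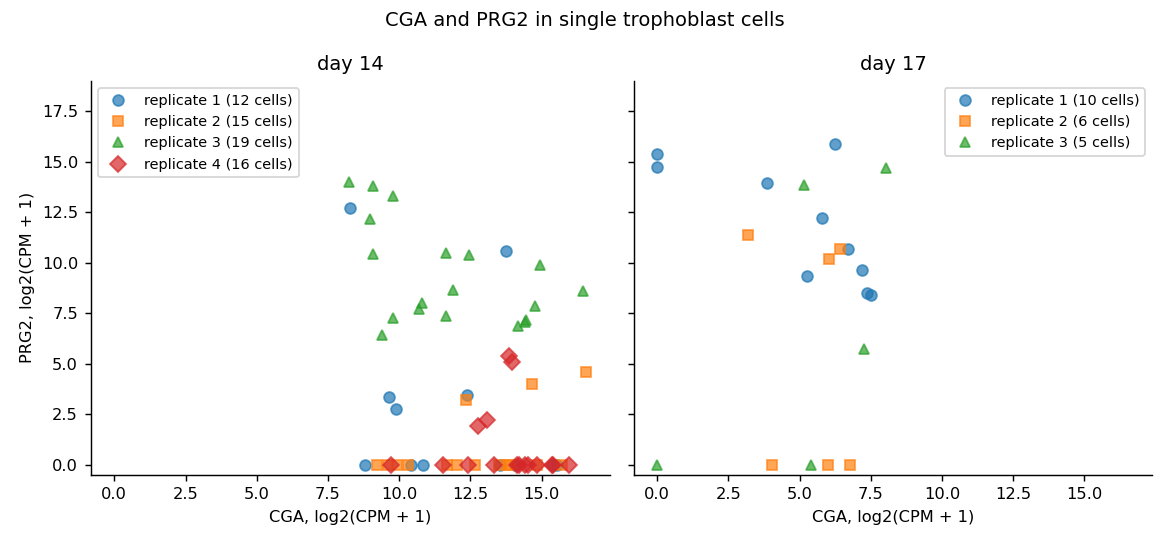
CGA (x axis) and PRG2 (y axis) as log2(CPM + 1) in each of the 83 trophoblast cells, day 14 on the left and day 17 on the right, with marker shapes for the embryos. Every day 14 cell lies at or above 302 CPM of CGA and every day 17 cell at or below 260.2 CPM, while cells above 1000 CPM of PRG2 appear in day 14 replicates 1 and 3 and in all 3 day 17 embryos.

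Cytotrophoblast and epithelial genes showed no call. Of 21 measured members none passed, the smallest adjusted p was 0.0558 and the median was -0.13. KRT18 was at 837, 2145, 1551 and 2276 CPM and 787, 634 and 930.4 CPM (adjusted p = 0.171), and KRT8 at 931, 1659, 1285 and 1378 CPM and 818, 932 and 593 CPM (adjusted p = 0.265). In the sums TP63 was at 49.1, 26.3, 15.9 and 22.8 CPM and 18.9, 10.8 and 212 CPM and ITGA6 at 92.8, 164, 36.1 and 102 CPM and 98.8, 54.2 and 172 CPM, with overlap between the days and adjusted p = 0.455 and 0.945. Genes of mitosis had a median of -0.63 and 3 of 28 members above 0, with no call. Over all genes tested the median was -0.03, with 4679 of 9614 above 0. DNA replication (28 measured, median -0.01) and cell cycle exit and ploidy (19 measured, median 0.15) had none either, and CDKN1C, an imprinted inhibitor of the cell cycle, was at 3084 ± 762 CPM and 2584 ± 871 CPM (adjusted p = 0.758).

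The list of integrins, laminins and collagens and the list of junction genes had 1 call between them. Of 26 measured members of the first list none passed, with a median of 1.04 and 23 above 0. Over all 9614 genes tested the median was -0.03 and 4679 were above 0, while 0.374% rose and 0.957% fell. In the fit over all days with the label type as a term the first list's median was 0.11 (30 measured). With developmental stage labels alone it was 0.03 (30 measured). The integrin chain ITGB2, which rose, is not on that list. FN1, fibronectin, was at 205, 148, 2129.8 and 558 CPM and 4110.3, 2085 and 1004 CPM (adjusted p = 0.396) and ITGB1 at 969 ± 429.7 CPM and 1514 ± 575 CPM (adjusted p = 0.455). FN1 is also a mesenchyme product, at 3519 to 5403 CPM in day 17 mesenchyme, and the summed mesenchyme markers given above overlapped between the days but reached higher on day 17; their part in these values was not tested. Of 25 junction genes 1 rose, DSP, the desmosome protein desmoplakin, at 256, 229.9, 205 and 239.97 CPM and 604, 602 and 674 CPM (log2 fold change 1.43, SE 0.28, adjusted p = 0.0314), against 142 to 202 CPM in mesenchyme. GJA5, a gap junction protein, was at 333 ± 127 CPM and 616 ± 137 CPM and CDH5, VE-cadherin, at 413 ± 101 CPM and 371 ± 161 CPM (adjusted p = 0.272 and 0.884). Of 30 proteases and inhibitors, HTRA1 rose and CTSV fell, and MMP2, a gelatinase, was at 2157 ± 1162 CPM and 3642 ± 1943 CPM (adjusted p = 0.481).

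Among 34 measured growth factors and receptors, FLT1 rose and GDF15 fell. Over all 9614 genes tested 0.374% rose and 0.957% fell, and 4679 had values above 0. Of 18 imprinted genes DLK1 rose and MEST, a hydrolase expressed from the paternal allele, fell from 1048, 1481, 906 and 1614 CPM to 429.7, 376 and 333 CPM (log2 fold change -1.73, SE 0.33, adjusted p = 0.029). IGF2, the fetal insulin-like growth factor, was at 696, 639, 489 and 295 CPM and 1126, 2330.1 and 1531 CPM, without overlap but without a call (adjusted p = 0.0575). Of 16 chemokine and cytokine genes CCR7 fell and CXCL14 rose, from 1.82, 0.547, 1.06 and 0.703 CPM to 15.5, 20.7 and 14.7 CPM (adjusted p = 0.0452), with 67.1 to 245 CPM in mesenchyme of day 17. IL1RN, the interleukin 1 receptor antagonist, was at 472 ± 247 CPM and 447 ± 147 CPM (adjusted p = 0.961). Of 29 genes of hypoxia and glycolysis BNIP3, a mitophagy receptor induced by low oxygen, rose from 337, 180.1, 252 and 106 CPM to 1097, 697 and 755 CPM (log2 fold change 1.96, SE 0.40, adjusted p = 0.0381) and 24 had values above 0, with GAPDH at 1127 ± 467 CPM and 2030.5 ± 109.7 CPM (adjusted p = 0.252). The calls of DSP and CXCL14 held in 1, and those of MEST and BNIP3 in 2, of the 7 fits that left out an embryo, with adjusted p up to 0.198.

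Oxidative phosphorylation had no call among 32 members, a median of -0.45 and 1 member above 0. Over all 9614 genes tested the median was -0.03 and 4679 were above 0, while 0.374% rose and 0.957% fell. Of 23 immediate early and stress genes EGR1 alone passed; the heat shock protein HSPB1 was at 1462 ± 733 CPM and 2934 ± 708 CPM and the endoplasmic reticulum chaperone HSPA5 at 1797 ± 606 CPM and 789 ± 335 CPM (adjusted p = 0.216 and 0.162). Of 9 measured genes of hormone handling ESRRG fell; HPGD, which inactivates prostaglandins, was at 6.37, 4.93, 17.0 and 18.6 CPM and 738, 50.2 and 36.6 CPM (adjusted p = 0.08), highest in day 17 replicate 1. Antigen presentation had 5 measured genes, no call and a median of 0.64.

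**Figure D4:**
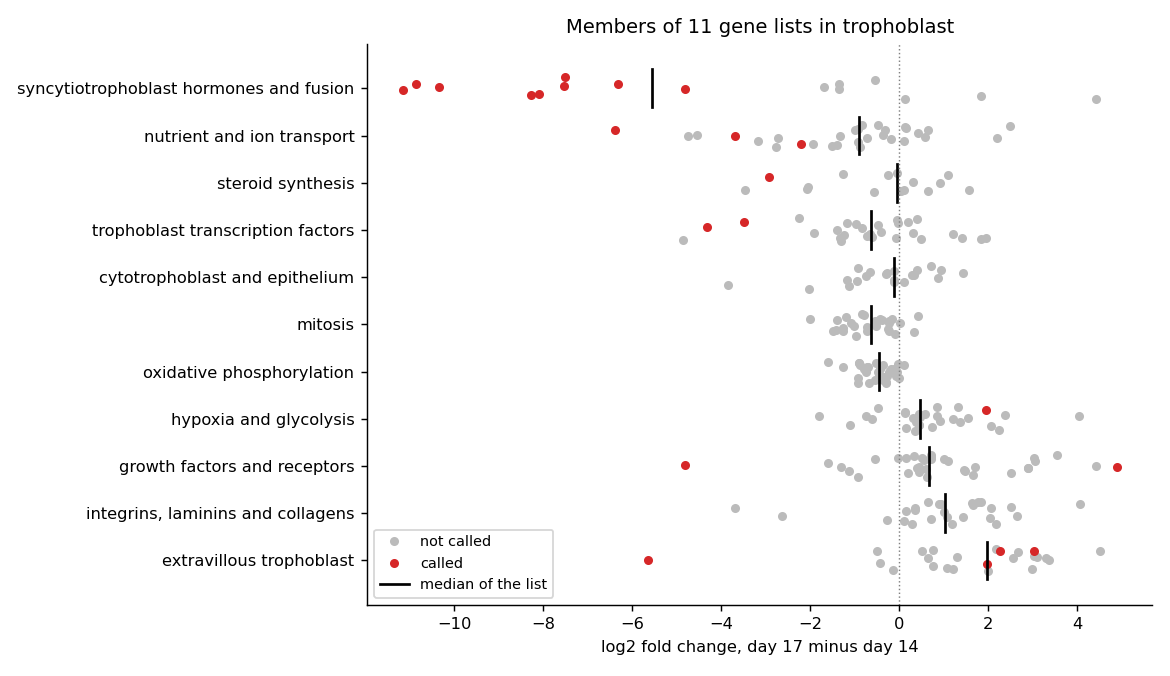
Log2 fold change of each measured member of 11 gene lists (rows), day 17 minus day 14, in trophoblast; red points passed the adjusted p of 0.05, grey points did not, and black bars are list medians. The red points of the syncytiotrophoblast list lie at -4.81 and below (fitted values of the 3 members without counts on day 17 depend on the model's prior count), while most points of the extravillous list lie above 0.

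To ask whether a change was particular to trophoblast, the day change was compared with that in extraembryonic mesenchyme of the same embryos, in the 3 embryos of each day with at least 5 cells of both. Of 13287 genes 12 (0.0903%) differed. FLT1 rose more in trophoblast than in mesenchyme by 3.49 (SE 0.53, adjusted p = 0.0115) on the log2 scale. In unscaled CPM of the embryos compared, the trophoblast range was 7.41 to 32.0 on day 14 and 352 to 743 on day 17. The mesenchyme range was 51.3 to 139.7 on day 14 and 165 to 177. Without day 17 replicates 1 or 2 this difference did not pass (adjusted p = 0.147 and 0.0693), nor did it without the embryo block (0.111).

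THRB, the thyroid hormone receptor beta, had a difference of 4.57 (SE 0.66, adjusted p = 0.0093). In trophoblast it was at 86.4, 24.6, 60.8 and 4.92 CPM on day 14. It then stood at 293, 251 and 289 CPM on day 17, which on its own did not pass (adjusted p = 0.1), and in mesenchyme it was at 6.70 to 56.9 CPM and then 3.55 to 16.0 CPM. TFPI2, a serine protease inhibitor of placenta named after its values were seen, had a difference of 6.24 (SE 0.81, adjusted p = 0.00445), with 2.73, 4.93, 14.6 and 39.7 CPM and 64.4, 73.9 and 84.2 CPM in trophoblast (adjusted p = 0.171) and a fall of 3.82 on the log2 scale in mesenchyme (adjusted p = 0.0417). The differences of THRB and TFPI2 passed in all 6 fits that left out an embryo; without the embryo block that of THRB did not (adjusted p = 0.194).

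HOPX had a difference of -7.14 (SE 0.81, adjusted p = 0.00198) and ID2 one of -3.74 (SE 0.48, adjusted p = 0.00445), the fall being larger in trophoblast, both also in all 6 fits without 1 embryo. ID2 stood at 83.0 to 209 CPM in day 17 mesenchyme, above all 3 trophoblast values of that day. MEST differed by -2.22 (SE 0.33, adjusted p = 0.0115) and stood at 1356 to 2448 CPM in mesenchyme of day 17. ASB2, a ubiquitin ligase subunit named after its values were seen, differed by -8.13 (SE 1.28, adjusted p = 0.0157), from 144, 119, 48.3 and 195 CPM to 1 count on day 17 in trophoblast (ratio 255, counting interval 45.7 to 10094). MEST lost this call without any of the 3 day 17 embryos (adjusted p up to 0.0784) and ASB2 without day 17 replicates 2 or 3 (0.0886 and 0.06). CGA itself was not among the 12, with a difference of -4.22 (SE 0.98, adjusted p = 0.454) and a fall of 3.08 in mesenchyme (adjusted p = 0.0492), nor was DLK1, with a difference of 1.13 (SE 1.22, adjusted p = 0.936).

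**Figure D5:**
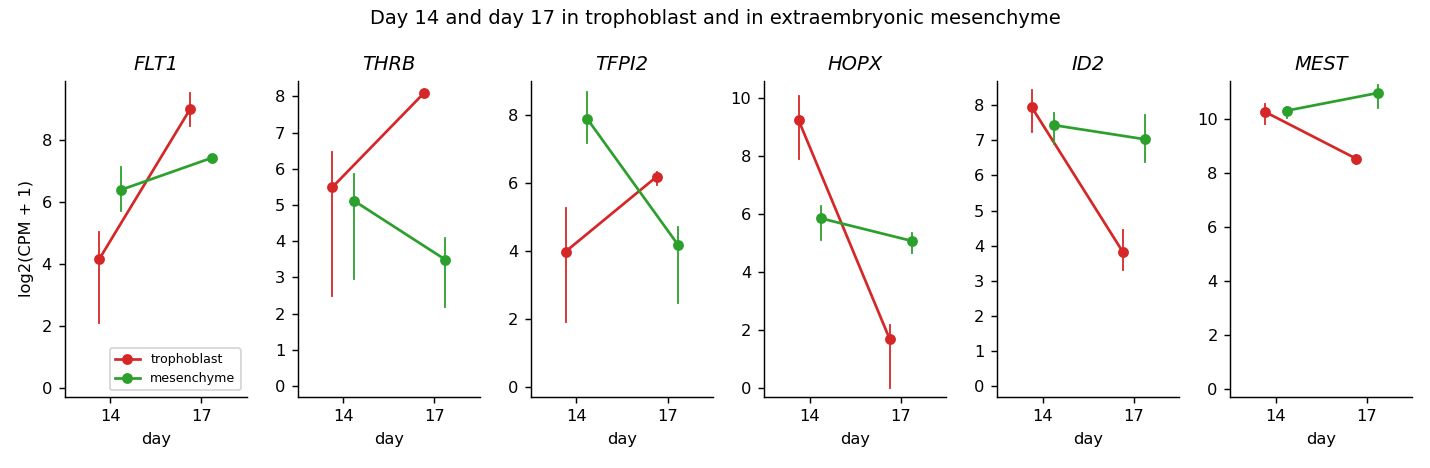
Unscaled CPM as log2(CPM + 1) on day 14 and day 17 of 6 genes whose day change differed between trophoblast (red, n = 4 and 3 embryos) and extraembryonic mesenchyme (green, n = 3 and 3); points are means over embryos and vertical lines the range, with day 14 replicate 2 shown for trophoblast but not in the test. FLT1, THRB and TFPI2 end higher in trophoblast, and HOPX, ID2 and MEST end lower.

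Set against the other cells of the same embryos, 22 of the 36 risen genes (61.1%) were higher in trophoblast than in mesenchyme in all 3 day 17 embryos, against 18.7% of all genes tested. Against epiblast it was 23 (63.9%), and 22.3% of all genes. Being called for a high level in day 17 trophoblast favours this count. EGR1 and CXCL14 were lower than in mesenchyme in all 3. Some risers are also expressed in epiblast. CYP26A1, which breaks down retinoic acid, went from 0, 0, 0 and 0.703 CPM to 102, 55.2 and 22.0 CPM in trophoblast, from 2 counts on day 14 (ratio 336, counting interval 91.4 to 2796, adjusted p = 0.00371), with counts in 5 of 21 cells of day 17. It stood at 49.2 to 645 CPM in day 17 epiblast. ZIC2, a transcription factor of epiblast and neural tissue, went from 0, 2.19, 0.265 and 0 CPM to 28.9, 89.7 and 33.0 CPM (adjusted p = 0.0159) in 9 of 21 cells. CRABP1, a retinoic acid carrier, went from 6.37, 1.09, 2.12 and 1.76 CPM to 46.6, 341 and 11.0 CPM (adjusted p = 0.0296), with 87.5% of its day 17 counts in 1 cell. Epiblast of day 17 held 4.47 to 182 CPM of ZIC2 and 123 to 669 CPM of CRABP1. The call of ZIC2 was lost without day 17 replicate 2 (adjusted p = 0.149) and that of CRABP1 in 4 of 7 fits (up to 0.202). All 3 were named after their values were seen, and the part of RNA from other cells in them was not tested.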

How the data were processed

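Single cells were sequenced at the 3' end of their mRNA, and 1 deposited table gives whole-number counts per gene and cell for 1453 cells, with STAR named as a tool in the submitters' processing notes; whether molecular identifiers were counted, and on which genome build, is not given by the labels or headers read here. Cell names and a deposited annotation gave the embryo and the type of each cell. No cell repeated the counts of another, and doublets were not treated, cells having been picked by hand per the labels' protocols. Of 16890 LOC identifiers 3273 were given a symbol through NCBI RefSeq gene records (names only).

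Counts of trophoblast cells were summed per embryo and tested with edgeR 4.0.16 (TMM, filterByExpr, robust glmQLFit, glmQLFTest, Benjamini-Hochberg over all genes tested). SE is the log2 fold change divided by the root of F. Summed counts of 287295 to 3848760 per embryo set the precision, and intervals on ratios cover counting error only. The difference in day change between cell types came from 1 model with the embryo as a block. Values per cell, by day and by list are descriptions. The scripts were tested on simulated data. Alternatives were DESeq2 1.42.0, other scalings and filters, limma 3.58.1 on cell means, all days in 1 fit, the label type, and leaving out embryos or cells.

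The cells, members and lists were chosen with earlier results of these data known. Named were the 12 largest rises and falls with at least 50 CPM in every embryo of the higher day, up to 4 called and 2 other members of each list, and PRG2, HTRA4, DLK1, CGA, CCR7, GATA2, GATA3, TFAP2A and TFAP2C; from the comparison of cell types up to 6 called genes among these; lists described by counts alone have no named example. Embryos of 1 day came from separate wells per the labels' protocols, and no label read here names their parents. Replicate numbers were given in accession order and pair nothing.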

Additional observations from a re-analysis of the deposited data

Results flagged for a closer look

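In day 14 embryos the gap between 1 embryo and the next was divided by the range of all 4. It passed the 95% limit of Dixon's test for 11 of 80 named genes tested. Chance passes that limit for about 1 group in 20 only where values are normally distributed, which was not tested for these CPM. Of the genes below, MMP12, ZIC2 and CYP26A1 were named after their values were seen. Replicate 3 was the high embryo for PRG2 (4761 CPM), MMP12 (2218 CPM), SERPINE2 (1258 CPM), NOTUM (797 CPM), TGFB2 (429.6 CPM), HTRA4 (348.9 CPM), VLDLR (38.2 CPM) and DLK1 (5.57 CPM). For SLC39A8 it was replicate 4 (322.5 CPM), for ZIC2 replicate 2 (2.19 CPM) and for CYP26A1 replicate 4 (0.703 CPM, 2 counts in 1 cell, with the other 3 embryos at 0, which alone fixes the result). The genes are not independent of each other, since the same 19 cells of replicate 3 gave 8 of the values.

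The day change differed between trophoblast and mesenchyme by a test of the difference itself (log2, trophoblast minus mesenchyme) for TFPI2 at 6.24, THRB at 4.57, FLT1 at 3.49, MEST at -2.22, ID2 at -3.74, HOPX at -7.14 and ASB2 at -8.13. The 5 other genes called there were not named, 3 of them having no symbol.

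The 3 trophoblast cells of day 16, which entered no test because no embryo of that day reached 5, held 69 counts of CGA, or 549 CPM over their summed counts, with counts in all 3 cells. PRG2 and HTRA4 had no count in them.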

How the results depend on the processing

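The number of calls, 128 with all embryos, moved with the setting. It was 688 with DESeq2 (299 rose, 389 fell), 848 without a filter on low counts (333 and 515), 476 with all days in the fit (110 and 366), 75 with the label type added to that fit (20 and 55), 2 with developmental stage labels alone (1 and 1), and 375 with equal weight per cell in limma (105 and 270). At least 10 CPM in every embryo of either day gave 70 rises, and leaving out the deepest cell of each embryo, an alternative chosen after seeing the data, gave 76. Leaving out 1 embryo gave 29 to 450 calls (7 to 245 rises, 19 to 205 falls): 450 without day 14 replicate 3, 53 without replicate 2 and 47 without replicate 4, and 42, 29 and 76 without day 17 replicates 1, 2 and 3. Of 44 named genes with a call, 14 kept it in all 7 of these fits. The replicate block gave 47 calls (7 rose, 40 fell); the numbers only follow accession order and do not pair embryos (correlations of deviations -0.12, 0.01 and -0.09). Day changes that differ between trophoblast and mesenchyme numbered 139 without a filter, 21 without the embryo block, and 6 to 48 without 1 embryo. The cause of these shifts was not tested.

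Among named genes without a call, the log2 fold change turned for GCM1 (-0.30 with equal weight per cell), GATA3 (-0.12 with the label type), CDKN1C (0.23) and CDH5 (0.69) without cells rich in mesenchyme markers, MMP2 (-0.31 with developmental labels alone), MMP12 (-0.38 with the label type), TP63 (-0.82 without the deepest cells), ITGA6 (-0.0093 without a filter, -0.24 without cells rich in mesenchyme markers) and IL1RN (0.10 with the label type, 0.33 with the replicate block, 0.064 without the deepest cells). Leaving out 1 embryo gave ranges that span 0 for GCM1 (-0.14 to 0.57), CDH5 (-0.52 to 0.15), IL1RN (-0.41 to 0.13), SLC2A1 (-0.035 to 0.29), TP63 (-0.91 to 1.95) and ITGA6 (-0.34 to 0.47). Depth limits day 17: replicate 3 had 287295 counts from 5 cells.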

Other observations

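DNMT3L, a cofactor of DNA methylation, was singled out after its values were seen and belongs to no list. It was at 57.3, 43.2, 26.8 and 21.8 CPM in trophoblast of day 14 and had no count on day 17, at least 23.3-fold lower (adjusted p = 0.0174 by edgeR, lost without day 17 replicates 1 or 2, at most 0.0979).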
